A study of Mus musculus with 6 samples.

Results

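Expression of complement components and complement inhibitors was examined in EMT6 mouse mammary carcinoma cells through 8 genes, matched to the table by gene identifier. These are the components C3, Cfb, C1ra and C1s1, the secreted inhibitor Serping1, and the membrane inhibitors Cd55, Cd59a and Cr1l, out of 53465 genes listed for the series. EMT6 cells were grown in culture for more than 4 weeks with 0.5 μg/ml of an isotype control antibody (PVITRO, 3 libraries) or of an antibody against PD-L1 (PTRVITRO, 3 libraries). PD-L1 is the ligand through which tumor cells restrain T cells, and the comparison asks how prolonged exposure to the antibody in culture bears on the tumor cell itself. All libraries came from a single cell line kept in medium with serum and without immune cells, and replicates are technical unless the study states otherwise, so p-values measure only the spread between these libraries.

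Complement is a proteolytic cascade of plasma that tags and lyses cells. The classical route starts when C1q activates the serine proteases C1r and C1s, the alternative route uses factor B, and all routes converge on cleavage of C3, whose fragments coat the target and lead to the membrane attack complex. Host cells carry inhibitors that take apart the C3 convertases (CD55 and, in rodents, Crry) or stop pore assembly (CD59), and C1 inhibitor, encoded by Serping1, blocks C1r and C1s. The liver makes most plasma complement, but epithelial cells, fibroblasts and macrophages also secrete components locally, often under interferon and inflammatory cytokines.

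The promoters of 6 of the 8 members were found in RefSeq (GRCm38.p6), and those of the most highly expressed component, the expressed membrane inhibitor and the membrane inhibitor without a count are shown as the 250 bases before the start site, 5′ to 3′, with CG dinucleotides in capitals. They lie at chr17:57228137-57228386 (C3), chr1:195131571-195131820 (Cr1l) and chr1:130462745-130462994 (Cd55), all on the minus strand.
C3: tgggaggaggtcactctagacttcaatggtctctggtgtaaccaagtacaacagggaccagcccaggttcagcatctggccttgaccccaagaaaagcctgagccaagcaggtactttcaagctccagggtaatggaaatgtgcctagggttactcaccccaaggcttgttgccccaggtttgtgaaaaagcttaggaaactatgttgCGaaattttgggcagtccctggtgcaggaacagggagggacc
Cr1l: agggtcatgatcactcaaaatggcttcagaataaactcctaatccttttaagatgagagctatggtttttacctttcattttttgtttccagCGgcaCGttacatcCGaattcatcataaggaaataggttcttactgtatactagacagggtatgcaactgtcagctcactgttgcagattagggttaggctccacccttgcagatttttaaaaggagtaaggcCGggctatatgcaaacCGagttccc
Cd55: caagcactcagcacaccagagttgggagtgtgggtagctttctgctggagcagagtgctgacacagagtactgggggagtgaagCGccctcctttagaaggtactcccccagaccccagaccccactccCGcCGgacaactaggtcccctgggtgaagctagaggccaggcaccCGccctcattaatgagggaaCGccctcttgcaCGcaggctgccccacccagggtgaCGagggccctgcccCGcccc
The C3 window held 1 CG and the Cr1l window 5, whereas that of Cd55, the gene with no count, held 8 at a GC content of 64.0%, against a median of 6 and 52.4% over 32851 promoters of this length. These windows were searched on both strands for TTCNNNGAA (the STAT site GAS), GAAANNGAA (the core of the interferon element ISRE), GGANTTTCC (a form of the kB site), TTNNGCAAT (a form of the C/EBP site) and TATAAA (the TATA box), and none of these letters occurred in the C3, Cr1l, Cd55 or C1ra windows. A match to the ISRE core (GAAAGGGAA) lay at -187 from the start of Cd59a and a C/EBP match (TTAGGCAAT) at -242 from the outer of the starts of C1s1. Of all promoters, 7.02% held the GAS letters, 7.13% the ISRE core, 1.07% the kB form, 1.93% the C/EBP form and 12.4% the TATA box, so the matches describe the windows and not occupied sites.

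EMT6 cells transcribed C3, Cfb, C1ra, C1s1 and the membrane inhibitor Cr1l in both groups, had almost no Serping1, and gave no or at most 1 count per library for Cd55 and Cd59a. After long exposure to the PD-L1 antibody, none of the 6 members with enough counts to be tested differed between groups at an adjusted p below 0.05 (edgeR quasi-likelihood test with Benjamini-Hochberg adjustment over 14217 genes). At that threshold 35 genes in the whole table were called, or 0.246% of those tested. The member with the lowest p was C1ra, at a fold of 0.904. By direction, 3 members had higher fitted means in PTRVITRO and 3 lower, and the median of their log2 fold changes was -0.03 (-0.00397 for all tested genes). An unadjusted p below 0.05 was found for 1 of the 6, against 11.4% of all tested genes, and the groups did not overlap for 1 of the 6, against 17.6% of all tested genes. DESeq2 and limma-voom likewise called 0 members, with 1 at an unadjusted p below 0.05 in each.

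**Figure D1:**
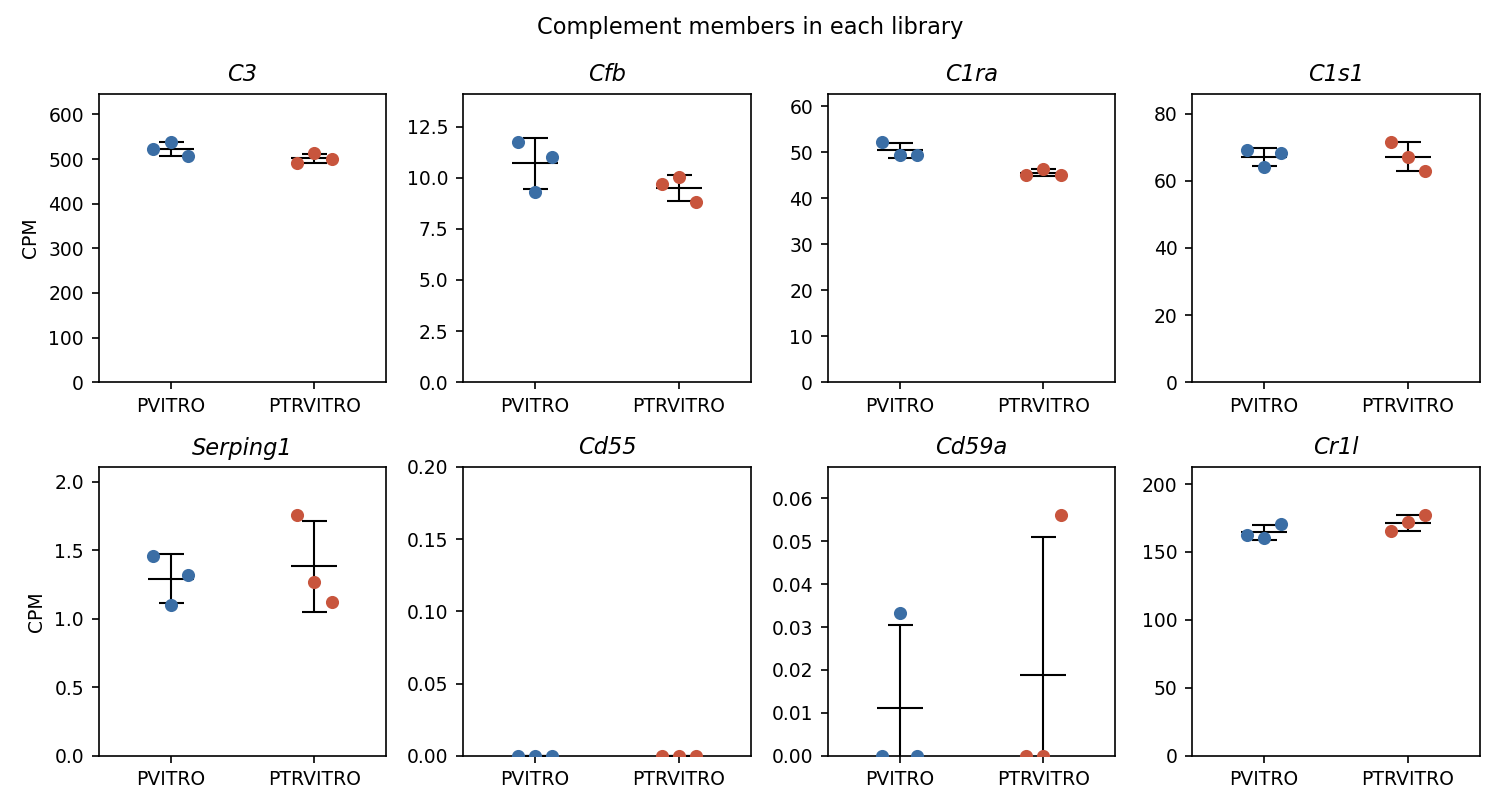
CPM (library-scaled counts; each vertical axis starts at 0 and has its own range) of the 8 members in the 3 PVITRO and 3 PTRVITRO libraries; points are libraries, in replicate order from left to right, and bars are the mean ± SD. C1ra was the member whose groups did not overlap, Cd55 had no count, and Cd59a had 1 count in each of 2 libraries.

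C3 (ENSMUSG00000024164.15, chr17:57203970-57228136, minus strand, GRCm38) encodes the central component on which all routes converge. Levels are given in CPM, which are counts scaled to a common library size (upper quartile). C3 was at 523 CPM in PVITRO 1, 539.0 in PVITRO 2 and 508 in PVITRO 3, and 491, 512 and 499.9 CPM in PTRVITRO 1, 2 and 3. PTRVITRO 1 and PTRVITRO 3 lay below every PVITRO library, whereas PTRVITRO 2 lay inside the PVITRO range, so the groups overlapped. Means were 523 ± 15.7 and 501 ± 10.6 CPM (SD, n = 3 each), a log2 fold change of -0.06 (SE 0.03, 95% interval -0.14 to 0.01), with an adjusted p of 0.535 by edgeR. The interval for the fold ran from 0.909 to 1.01.

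C3 was also abundant in comparison with other complement genes. Per kilobase of exon it reached 102 ± 3.05 CPM in PVITRO and 97.5 ± 2.06 in PTRVITRO, and it made up 31.0% to 33.9% of the summed level of 54 complement genes in a library. Over the length of the transcript with the longest coding sequence this share was 17.2% to 19.1%. Over the 6 libraries, the genes among 11795 with a mean count of at least 50 whose log2 CPM was most like that of C3 were Abtb2 (Pearson r 0.995), Rapgef2 (0.989) and Srcap (0.988), and Ggact was the least like it (-0.996). These correlations are over 6 libraries and, picked from so many genes, are a description. No likeness could be computed for Cd55.

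Cfb (ENSMUSG00000090231.10, chr17:34856374-34862518, minus strand) encodes factor B, the protease of the alternative C3 convertase. It was at 11.8, 9.31 and 11.04 CPM in PVITRO and 9.69, 10.02 and 8.81 CPM in PTRVITRO. PVITRO 2 sat within the PTRVITRO values, so the groups overlapped. Means of 10.7 ± 1.26 and 9.51 ± 0.625 CPM gave a log2 fold change of -0.16 (SE 0.10, 95% interval -0.38 to 0.07, adjusted p 0.601 by edgeR). Without PVITRO 2 the value was -0.25, the lowest of the leave-one-out fits, which reached -0.08 at the other end. Gm20547, a gene model that overlaps Cfb and shares 2248 bases with it at 100% identity, held at most 14.9 estimated counts in any library, and adding it left the log2 ratio at -0.16 (exact permutation test over samples, two-sided, p = 0.3). With 3 libraries against 3 that test has 20 arrangements and cannot go below 0.1.

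C1ra and C1s1 encode the proteases C1r and C1s of the classical route and lie close together on chromosome 6 (C1ra, ENSMUSG00000055172.10, chr6:124512405-124523443, plus strand; C1s1, ENSMUSG00000038521.17, chr6:124530345-124542359, minus strand). C1ra was at 52.3, 49.5 and 49.4 CPM in PVITRO and 45.1, 46.4 and 45.1 CPM in PTRVITRO. Every PVITRO library was above every PTRVITRO library. The means were 50.4 ± 1.66 and 45.5 ± 0.760 CPM, the log2 fold change was -0.15 (SE 0.04, 95% interval -0.24 to -0.05) and the unadjusted p was 0.00704, but over all genes the adjusted p was 0.232 by edgeR. Across the 15 other fits its adjusted p ran from 0.198 to 0.531 and the unadjusted p stayed below 0.05 in 15 of 15.

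C1s1 was at 69.3, 64.2 and 68.2 CPM in PVITRO and 71.7, 67.0 and 62.9 CPM in PTRVITRO. The highest and the lowest value both came from PTRVITRO. Its means were 67.2 ± 2.68 and 67.2 ± 4.39 CPM, with a log2 fold change of 0.00 (SE 0.05, 95% interval -0.11 to 0.12, adjusted p 0.983 by edgeR). The sign of so small a value changed in 3 of 15 other fits. Taken as a quantity after the values were seen, the C1ra to C1s1 ratio was 0.755, 0.771 and 0.724 in PVITRO and 0.630, 0.693 and 0.716 in PTRVITRO, without overlap, at the smallest p the exact permutation test can give (p = 0.1, two-sided).

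Both proteases have near-identical neighbours whose reads the estimated counts had to divide. C1ra matched C1rb over 2432 bases at 97.9% identity and C1s1 matched C1s2 over 2644 bases at 96.0%. C1rb was much lower than C1ra (4.49 ± 0.303 and 4.09 ± 1.17 CPM), and C1s2 lower than C1s1 (7.02 ± 0.843 and 7.71 ± 0.806 CPM). Summing C1ra with C1rb gave 54.9 ± 1.57 and 49.6 ± 1.24 CPM and left the log2 ratio at -0.15 (exact permutation test, p = 0.1), and C1s1 with C1s2 gave 74.3 ± 2.87 and 74.9 ± 4.53 CPM (p = 1.0). The antisense gene model Gm16567, which overlaps C1s1 and was looked at after its values were seen, was listed at 1.36, 10.9 and 0.11 estimated counts in PVITRO and 44.4, 10.6 and 33.3 in PTRVITRO. In CPM the groups did not overlap (0.137 ± 0.201 and 1.199 ± 0.745), with a log2 fold change of 2.87 (SE 0.77), an unadjusted p of 0.00344 and an adjusted p of 0.184 by edgeR. Whether strand was used in counting is not given in the sources used here, so reads of Gm16567 and C1s1 cannot be told apart.

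Serping1 (ENSMUSG00000023224.12, chr2:84765387-84775444, minus strand) encodes C1 inhibitor, a secreted serpin that inactivates C1r and C1s. It had 34, 33 and 32 counts in PVITRO and 57, 36 and 20 counts in PTRVITRO, or 1.46, 1.10 and 1.32 CPM and 1.76, 1.27 and 1.12 CPM. PTRVITRO 1 was the highest library, and the other two lay within the PVITRO range. Means of 1.29 ± 0.179 and 1.38 ± 0.333 CPM gave a log2 fold change of 0.14 with a wide interval of -0.39 to 0.67 (SE 0.24, adjusted p 0.873 by edgeR). Without PTRVITRO 1 the value was -0.09. At these counts, values between the ends of that interval could not be told apart. Per kilobase of exon, Serping1 stood at 0.556 and 0.595 CPM, far below its target proteases C1s1 (21.5 in both groups) and C1ra (16.9 and 15.3).

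Cr1l (ENSMUSG00000016481.15, chr1:195097382-195131586, minus strand) encodes Crry, the widely expressed rodent membrane regulator that inhibits C3 convertases. It was at 162, 160.3 and 171 CPM in PVITRO and 166, 172 and 177 CPM in PTRVITRO. The values overlapped, with PVITRO 3 inside the PTRVITRO range. Means were 164 ± 5.45 and 172 ± 5.78 CPM, with a log2 fold change of 0.06 (SE 0.04, 95% interval -0.03 to 0.15, adjusted p 0.618 by edgeR). Crry-ps on chromosome 8, which matches Cr1l over 1320 bases at 96.6% identity, was listed at 11.3 ± 0.210 and 10.9 ± 0.555 CPM, and the sum with Cr1l had a log2 ratio of 0.05 (exact permutation test, p = 0.2). Cr2, a related receptor gene without such a match, had at most 2 counts in a library.

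Cd55 (ENSMUSG00000026399.12, chr1:130439027-130462744, minus strand) encodes decay-accelerating factor, a GPI-anchored inhibitor of C3 convertases, and had 0 counts in 6 of 6 libraries. A count of 0 allows up to 3 counts, which is 0.0925 to 0.168 CPM depending on the depth of the library. Its copy Cd55b, which shares 379 bases with it at 98.4% identity, also had 0 counts in every library. Cd59a (ENSMUSG00000032679.12, chr2:104095801-104115354, plus strand) encodes CD59, the GPI-anchored inhibitor of the membrane attack complex, and had 1 count in PVITRO 2, 1 count in PTRVITRO 3 and 0 in the other libraries. Its relative Cd59b had 3 counts in PVITRO 1 and 0 elsewhere. Neither Cd55 nor Cd59a passed the filter on low counts, and no comparison between groups was detectable at this depth.

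Of the 3 membrane inhibitors Cr1l, Cd55 and Cd59a, Cr1l was the one with enough counts to be tested. Cd46, a further membrane inhibitor from the wider complement list, was low at 1.01 ± 0.144 and 0.939 ± 0.0651 CPM (log2 fold change -0.11, adjusted p 0.904 by edgeR). In every library the level of Cr1l per kilobase was at least 493-fold above the limit that 3 counts set for Cd55. The place of Cr1l among the components depended on the length used. Over the union of its exons it stood at 15.9 and 16.6 CPM per kilobase, below C3 and next to C1ra (16.9 and 15.3), and no order between Cr1l and C1ra held in both groups. Over the transcript with the longest coding sequence it stood at 99.6 and 104 CPM per kilobase, beside C3 at 102 and 97.6, again with no order that held in both groups. C1s1, C1ra, Cfb and Serping1 kept their order under both lengths, with Cfb at 3.79 and 3.36 CPM per kilobase of exon.

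**Figure D2:**
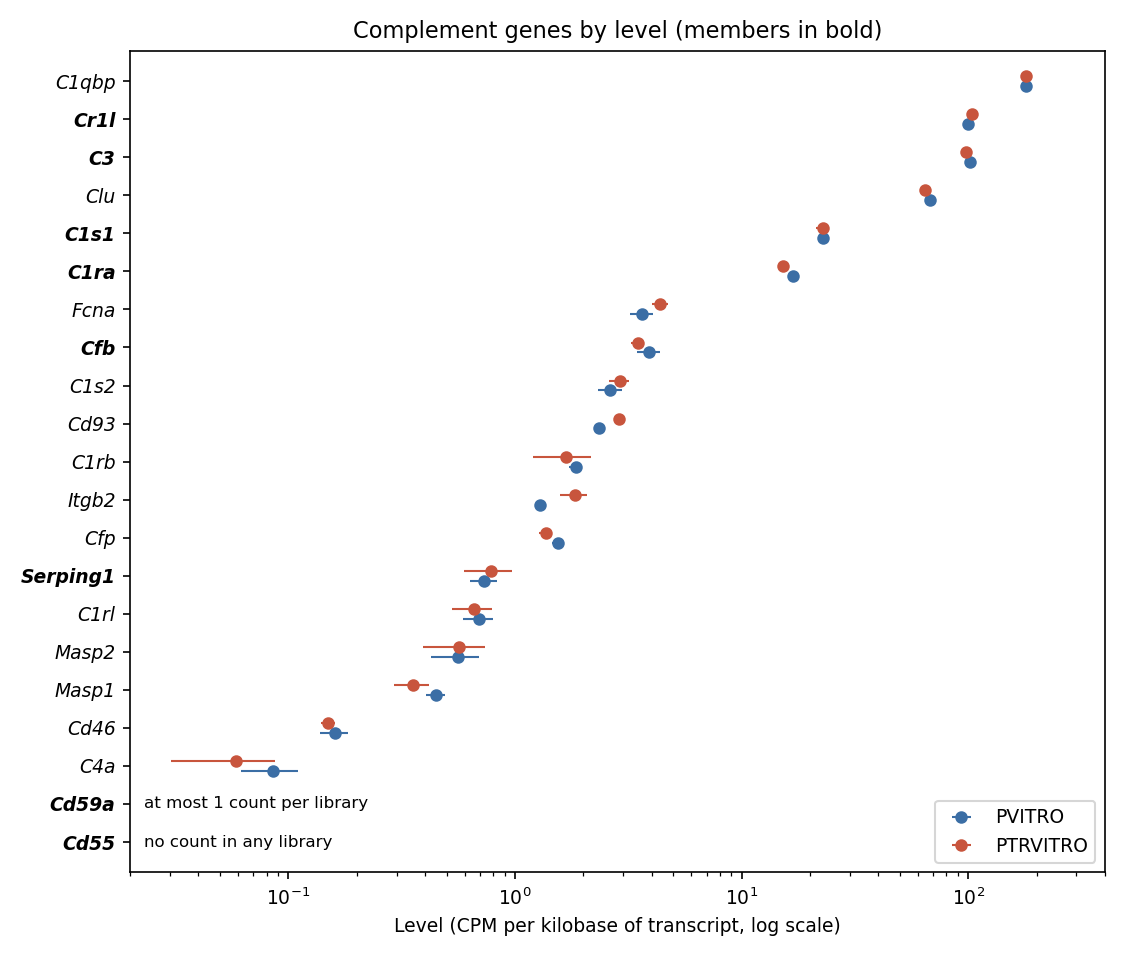
Level of the 8 members (bold) and 13 other tested complement genes as CPM per kilobase of the transcript with the longest coding sequence (exon union for C4a, which has none), on a log axis; points are group means and bars the SD over 3 libraries. Cr1l and C3 were near 100 in both groups, and Cd55 and Cd59a had at most 1 count per library.

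The rest of the cascade was read from 46 further complement genes. Of these, 14 were tested, 5 with higher and 9 with lower fitted means in PTRVITRO, and 0 were called (against 0.246% of all tested genes). An unadjusted p below 0.05 was found for 3 by edgeR, against 11.4% of all tested genes, for 3 by DESeq2 and for 4 by limma-voom. The groups did not overlap, in either direction, for 5 of the 14, against 17.6% of all tested genes. The median log2 fold change of the 14 was -0.06, and 19 of the 46 had 0 counts in every library.

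Recognition molecules were nearly absent, with 1 of 9 tested. C1qa, C1qb and C1qc, the subunits that carry C1r and C1s to a target, and the lectins Mbl1 and Mbl2 had 0 counts in every library, and Colec11 had 1 count in a single library. Fcna, a ficolin of the lectin route, was at 5.00 ± 0.571 CPM in PVITRO and 6.01 ± 0.497 in PTRVITRO without overlap (log2 fold change 0.28, SE 0.13, adjusted p 0.441 by edgeR). Of the components, C4a was at 0.532 ± 0.149 and 0.364 ± 0.176 CPM and C4b, which is a near copy of it, at 0.224 ± 0.197 and 0.289 ± 0.155. Of 6 terminal genes, which build the membrane pore, 0 were tested and 4 had 0 counts in every library, C8g being the highest at 0.154 ± 0.0218 and 0.289 ± 0.124 CPM and C9 having at most 2 counts in a library.

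A fluid-phase inhibitor was present beside Cr1l. Clu, which encodes clusterin, an inhibitor of pore assembly with many other roles, was at 123 ± 5.36 and 117 ± 4.56 CPM. Cfp, which encodes properdin, the stabilizer of the alternative convertase, was low at 2.53 ± 0.152 and 2.23 ± 0.145 CPM. Its groups did not overlap, with PVITRO above (log2 fold change -0.17, adjusted p 0.727 by edgeR).

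Of 10 receptor genes 3 were tested, and 2 had an unadjusted p below 0.05 by edgeR, against 11.4% of all tested genes. Both had higher values in PTRVITRO, and neither was called in the fit as reported. Cd93, a surface protein first described as a receptor of C1q, was at 14.9, 15.6 and 16.4 CPM in PVITRO and 19.2, 18.2 and 20.1 CPM in PTRVITRO. The groups did not overlap, with a log2 fold change of 0.29 (SE 0.07) and an adjusted p of 0.140 by edgeR, which ran from 0.0207 to 0.364 over the other fits. Itgb2, the beta chain of the integrin receptors for the C3 fragment iC3b, was at 3.94, 3.64 and 3.84 CPM and 5.397, 4.73 and 6.17 CPM, also without overlap (log2 fold change 0.50, SE 0.14, adjusted p 0.195 by edgeR, from 0.0484 to 0.433 over the other fits). Its alpha partners Itgam and Itgax had at most 1 count in a library. C1qbp, a mitochondrial protein that binds C1q, was at 212 ± 10.5 and 210.4 ± 0.642 CPM and the highest of this list per kilobase of exon (75.0 and 74.4 CPM). C3ar1 and C5ar1, the receptors of the C3a and C5a fragments, had 0 counts in every library.

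**Figure D3:**
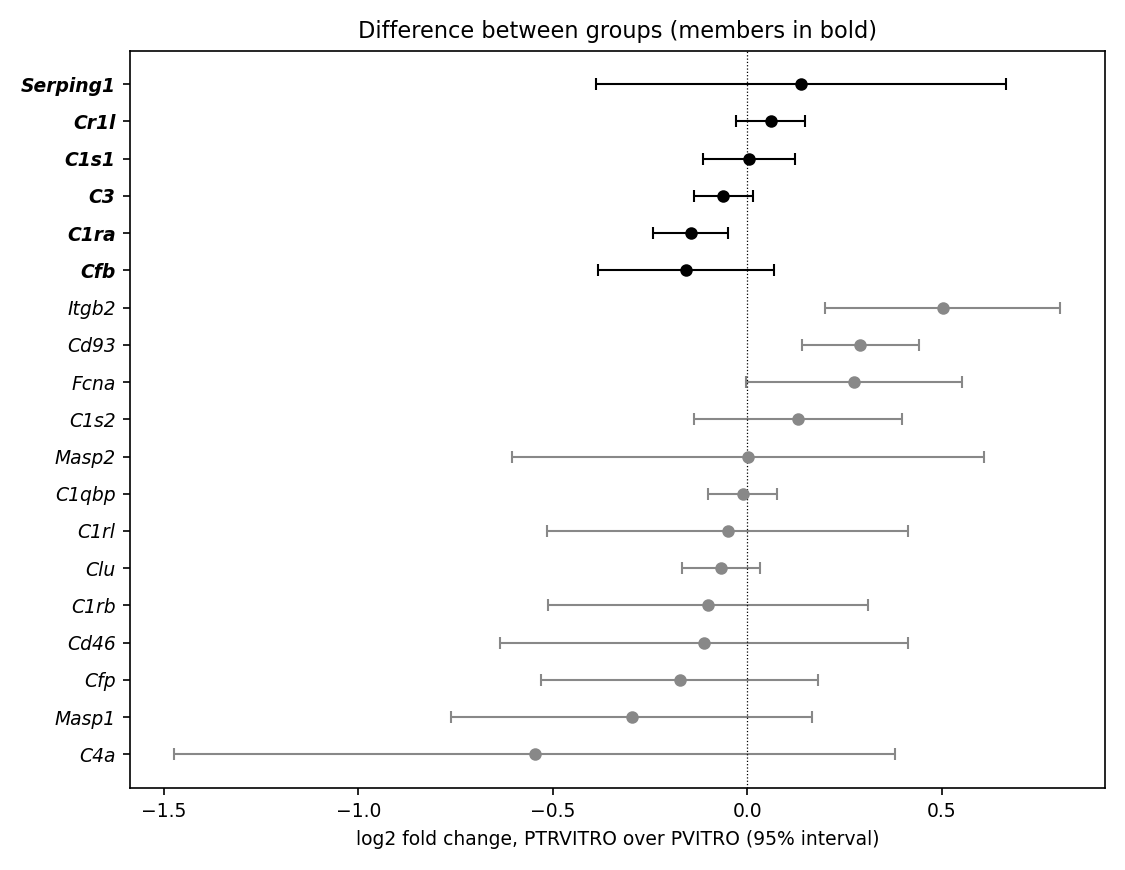
Log2 fold change of PTRVITRO over PVITRO with its 95% interval from edgeR for the 6 tested members (bold, black) and 13 other tested complement genes (grey), 3 libraries per group. The intervals of C1ra, Cd93 and Itgb2 leave out 0, and 0 of the 19 genes drawn were called after adjustment over 14217 genes.

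CD55 and CD59 reach the cell surface on a GPI anchor, and 26 genes that build, attach or remodel this anchor were listed. Of these 25 were matched in the table (Pigy was not) and these 25 passed the filter, 16 with higher and 9 with lower fitted means in PTRVITRO, and 0 were called (1 at an unadjusted p below 0.05 by edgeR, 0 by DESeq2 and 0 by limma-voom), against 0.246% called and 11.4% at that unadjusted p over all tested genes by edgeR. That gene was Pigm, a mannosyltransferase of anchor assembly, at 35.2 ± 1.12 and 37.8 ± 0.595 CPM (log2 fold change 0.10, SE 0.05, adjusted p 0.438 by edgeR). The anchor genes were transcribed in both groups, with Cd55 at 0 counts in each.

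Of 21 cytokines, receptors and transcription factors that induce complement genes, 17 were tested, 6 with higher and 11 with lower fitted means, and 0 were called (2 at an unadjusted p below 0.05 by edgeR, 2 by DESeq2 and 2 by limma-voom). The 2 of 17 are near the 11.4% of all tested genes at that unadjusted p by edgeR. Il1r1, the interleukin-1 receptor, was at 95.8 ± 6.99 CPM in PVITRO and 86.9 ± 1.98 in PTRVITRO (log2 fold change -0.14, SE 0.05, adjusted p 0.315 by edgeR). Stat3, the transcription factor downstream of interleukin-6, was at 77.1 ± 2.93 and 69.7 ± 2.78 CPM (log2 fold change -0.14, SE 0.05, adjusted p 0.262 by edgeR). Both had groups that did not overlap, with PVITRO above. Over this list the groups did not overlap for 4 of the 17, against 17.6% of all tested genes, and among them Tnf had PTRVITRO above.

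Markers of hepatocytes, of T and NK cells and of endothelial cells, and macrophage markers other than Cd68, were at or near 0. Over macrophage markers without Cd68 the summed level was 0.0334 to 0.0856 CPM in PVITRO and 0 to 0.154 in PTRVITRO, with Ptprc and Adgre1 at 0 in every library, while Cd68 stood at 11.7 to 13.2 and 11.3 to 12.9 CPM. Hepatocyte markers summed to at most 0.1001 CPM, T and NK cell markers to at most 0.0668 and endothelial markers to at most 0.257. Mammary epithelial markers summed to 1541 to 1664 CPM in PVITRO and 1627 to 1707 in PTRVITRO. Of these Krt8 was at 1077 ± 48.7 and 1086 ± 20.8 CPM. Krt18 was at 489 ± 14.6 and 549 ± 23.1 CPM, without overlap (log2 fold change 0.17). Epcam stood at 1.59 ± 0.306 and 2.24 ± 0.149 CPM, also without overlap (0.48). Krt14 went the other way, again without overlap (-0.25). Of 5 tested epithelial markers, 4 had higher and 1 lower fitted means in PTRVITRO, and 0 were called, against 0.246% of all tested genes. Cdh1 had at most 1 count in a library. Mesenchymal markers summed to 10640 to 11440 CPM in PVITRO and 9718 to 10100 in PTRVITRO without overlap, the direction of C1ra, and the part of this in the C1ra values was not tested. Most of this sum was Fn1 (6645 ± 471 and 5866 ± 315 CPM). Col1a1 (1113 ± 44.0 and 979 ± 56.8 CPM) and Col1a2 (1289 ± 25.0 and 1169 ± 38.2 CPM) were also lower in PTRVITRO. Fn1, Col1a1 and Col1a2 each had groups without overlap, and none of them was called. Vim was at 1889 ± 23.7 and 1890 ± 71.4 CPM, and Cdh2 had at most 2 counts in a library.

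**Figure D4:**
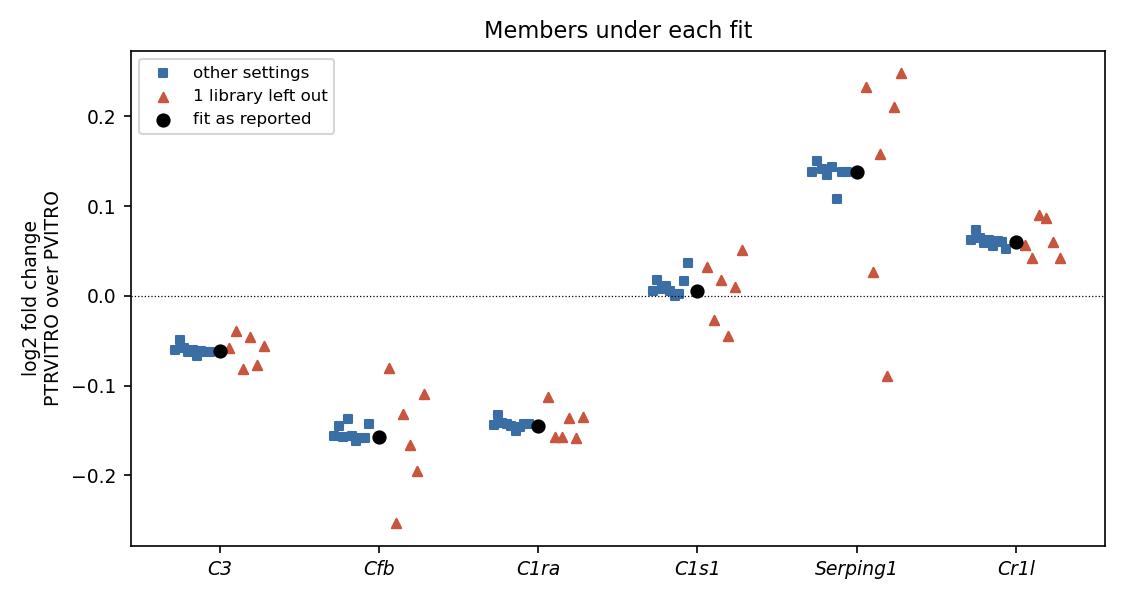
Log2 fold change of each tested member in the fit as reported (black), under up to 9 other settings (blue squares) and with 1 library left out (red triangles, 6 fits); the vertical axis is PTRVITRO over PVITRO. C3, Cfb and C1ra stayed below 0 and Cr1l above 0 in every fit drawn, while C1s1 and Serping1 crossed 0.

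Under the other settings no member was called. C3 ranged from -0.08 to -0.04 over the leave-one-out fits, C1ra from -0.16 to -0.11 and Cr1l from 0.04 to 0.09. These 3 members and Cfb kept their direction in 15 of 15 fits.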

How the data were processed

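RNA of EMT6 cells was sequenced by the study from polyA-selected, stranded libraries (TruSeq Stranded mRNA) in 3 PVITRO and 3 PTRVITRO samples, grouped by their GEO labels. Per the labels and the study's methods, the authors used FastQC 0.11.5, aligned reads with STAR 2.6.0a to GRCm38 and estimated gene counts with RSEM 1.3.1. The deposited values are RSEM expected counts per gene, of which 12.5% to 13.8% per library are not whole because shared reads are divided between genes. Totals ran from 17757341 to 32426739 counts per library. Floors of 3 counts cover counting error only, and PCR duplicates without molecular identifiers are not independent molecules.

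Expected counts were rounded, filtered with edgeR's filterByExpr (minimum count 10, total 15), scaled by upper quartile and tested with edgeR 4.0.16 (quasi-likelihood F test, R 4.3.3), with Benjamini-Hochberg adjustment over 14217 genes and a threshold of 0.05. CPM are scaled by the same factors. Of the 53465 genes, 53274 were paired with a symbol through the GENCODE annotation of GRCm38. Near-identical copies were found by aligning transcripts with BLAST+ 2.17.0 (at least 95% identity over 100 bases). Libraries of a group differed beyond counting noise (chi-square per degree of freedom 2.60 to 7.59). The fitting code was tested on simulated data.

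The comparison was repeated with a replicate block, with each library left out, with copies summed, with DESeq2 1.42.0 and limma-voom (limma 3.58.1), with TMM or no scaling, and with no filter or a stricter one of 10 counts in every sample. Summing the copies found by alignment, the coding transcript length, and the C1ra to C1s1 ratio were added after seeing the data.

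The members and lists were chosen with earlier results of these data known. Named were all members, their copies, genes of the wider complement, GPI anchor and inducer lists with an unadjusted p below 0.05, the 2 highest per role in the wider complement list and the genes most and least like C3. Of the copies, Gm18840 (matching C1ra) and Gm16083 (matching Cd55) had 0 counts in every library and are not described further. Other names were added after their values were seen: the single cell type markers, C1qa, C1qb, C1qc, Mbl1, Mbl2, Cd46, Itgam, Itgax, C3ar1, C5ar1, Gm16567, Gm20547 and Crry-ps. Values of 1 gene of the wider complement list are not reported here, though counts over that list include it.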

Additional observations from a re-analysis of the deposited data

How the results depend on the processing

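The count of members called was 0 in each of the 15 other fits, including the replicate block, DESeq2 and limma-voom. Over single values, 189 of 195 comparisons with another setting kept their direction and their side of the threshold, 2 passed it and 4 changed sign. The changes of sign were C1s1, at -7.303e-06 under the stricter filter of 10 counts per sample and from -0.0443 to 0.0506 over the leave-one-out fits, and Serping1, from -0.0895 to 0.248. The values that passed were Itgb2 (adjusted p 0.0484) and Cd93 (0.0207) without a filter on low counts, where 2 genes of the wider complement list were called. The 35 genes called over the whole table became 68 in the fit with the replicate block, 54 under the stricter filter, 400 when the filter was dropped and 111 by DESeq2. With 1 library left out they ran from 8 (without PTRVITRO 3) to 64 (without PVITRO 2). The cause was not tested. Same-numbered libraries deviated together with correlations of 0.109, 0.095 and -0.0556, so the numbers were not taken to pair the samples. Serping1 has no adjusted p from DESeq2, and Cd55 and Cd59a have no fitted value reported. Depth limits Serping1, with 20 to 57 counts per library, and the membrane inhibitors at or near 0.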

Other observations

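The 15 pairs of tested members had correlations of either sign across the 6 libraries. As a description over 6 libraries that share their scaling, the log2 CPM of C1s1 followed that of Serping1 (Pearson r 0.96), a pair in which Serping1 rests on 20 to 57 counts, while C1s1 and its neighbour C1ra had an r of 0.13. Cfb went with C1ra (0.758) and C1s1 (0.611), and C3 went with C1ra (0.724) and against Cr1l (-0.623).

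Tnf, an inducer of C3 and Cfb that was singled out after its values were seen, was transcribed in the cultures at 48.6 ± 1.85 CPM in PVITRO and 52.1 ± 1.11 in PTRVITRO (SD, n = 3 each), without overlap and with an adjusted p of 0.448 by edgeR. Il6, singled out in the same way, stood at 3.34 ± 0.529 and 3.16 ± 0.0810 CPM with overlapping groups.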
